A study of Mus musculus with 12 samples.

Results

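The fibrillar collagens described here are 8 of the chains of the collagens that assemble into banded fibrils. They are Col1a1, Col1a2, Col3a1, Col5a1, Col5a2, Col5a3, Col11a1 and Col24a1. Col2a1, Col11a2 and Col27a1 also encode fibrillar chains, were not members and are described separately below. The members were chosen by gene symbol, with earlier results of these data known. All 8 were found among the 40760 genes of the count table and in the normalized table. The data came from bulk RNA-seq of CD140a+ cells, which carry the PDGF receptor Pdgfra, sorted from lungs of male mice. The 12 libraries fell into 4 groups of 3, which were wild-type (WT) mice given vehicle, Pear1-/- mice given vehicle, WT mice given bleomycin (bleo) and Pear1-/- mice given bleo. Bleo is a DNA-damaging drug that scars the lung when it is given into the airways. Both genotypes shared the C57BL/6 background, and Pear1-/- was a knockout-first allele with a trapping cassette within the gene, which is not restricted to a cell type. By the general statement of the study its mice were young adults, and bleo dose, day of harvest and the number of mice behind a library were not given for these libraries in the sources used here. Because nothing states that the libraries came from separate mice, p-values measure the spread between libraries, which may be technical.

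A fibrillar collagen is a triple helix of 3 chains that is secreted as a procollagen and trimmed outside the cell before it joins a fibril. Type I collagen, made of Col1a1 and Col1a2 chains, and type III collagen, a homotrimer of Col3a1, form the bulk of lung interstitial fibrils. Type V collagen, made of Col5a1, Col5a2 and sometimes Col5a3 chains, sits inside type I fibrils and is known to govern how they start and how thick they grow. Col11a1 is a chain of type XI collagen, the cartilage counterpart of type V, and Col24a1 encodes a minor fibrillar chain known from developing bone and cornea. Fibroblasts are the main source of these chains in the lung, and their build-up defines fibrosis.

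The members lie on 6 chromosomes of GRCm38 in the GENCODE M21 annotation. Col1a1 (ENSMUSG00000001506) spans chr11:94936224-94953042 on the plus strand and Col1a2 (ENSMUSG00000029661) chr6:4504814-4541544 on the plus strand. Col3a1 (ENSMUSG00000026043, chr1:45311538-45349706, plus) and Col5a2 (ENSMUSG00000026042, chr1:45374321-45503282, minus) are neighbours that point toward each other, with 24614 bases between them. Col5a1 (ENSMUSG00000026837) spans chr2:27886425-28039514 on the plus strand, and its exons overlap 2 antisense transcripts, whose reads cannot be told apart from its own without strand. Col5a3 (ENSMUSG00000004098) spans chr9:20770050-20815067 on the minus strand. Col11a1 (ENSMUSG00000027966, chr3:114030540-114220718) and Col24a1 (ENSMUSG00000028197, chr3:145292472-145552011) are both on the plus strand of chromosome 3.

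The miR-29 family is known as a repressor of collagen mRNAs, and its seed is a sequence feature that most members share. The 3 mature forms in RefSeq (GRCm38.p6) are shown with the seed, bases 2 to 8, in capitals, because the same 7 letters pair with each site printed after them.
mmu-miR-29a-3p: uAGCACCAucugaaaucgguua
mmu-miR-29b-3p: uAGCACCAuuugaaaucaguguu
mmu-miR-29c-3p: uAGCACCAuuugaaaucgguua

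The complement of that seed was searched in the 3′ UTR of the transcript with the longest coding sequence of each gene. It occurred in 7 of 8 members (87.5%), against 13.5% of 14417 tested genes with a 3′ UTR, and at least 2 times in 3 members, against 2.17% of those genes. The members' 3′ UTRs were longer, with a median of 1364 bases against 957. Col5a1 held 4 matches, Col5a3 held 3, Col11a1 held 2, and Col1a1, Col3a1, Col5a2 and Col24a1 held 1 each. Col1a2 held none in the 882 bases searched. Of the 13 matches, 6 were followed by an A, the base that completes the strongest class of site, and these lay in 5 members. They are shown with the 7 matching bases in capitals and named by the base of the 3′ UTR at which the match starts. These libraries did not measure mature miRNAs, and a match is a description of the letters, not of binding.
Col1a1, base 919: tgggaaggaatttcTGGTGCTa
Col3a1, base 235: tcaaaatgtctcaaTGGTGCTa
Col5a1, base 1018: acacttgtctcttgTGGTGCTa
Col5a1, base 1334: ttgctgaatgtttgTGGTGCTa
Col5a2, base 1112: ttttcttttaatgaTGGTGCTa
Col5a3, base 325: tccaccaggcctttTGGTGCTa

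Promoter sequence from RefSeq (GRCm38.p6) was matched by symbol for 6 members, and Col1a1 and Col5a2 had no entry. Starts here are those of RefSeq, and the one of Col1a2 lies inside its GENCODE span, which begins at chr6:4504814. The 250 bases before each start were searched on both strands for CCAAT, the letters bound by the factor NF-Y, for TATAAA, for GGGCGG, the core of an Sp1 box, and for CAGAC, a Smad-binding element. CCAAT was present in 3 members (Col1a2, Col5a3 and Col11a1), against 33.8% of 32851 promoters. GGGCGG was present in 4 members, against 32.7% of promoters, and CAGAC in 4, against 42.2%. TATAAA was present in Col3a1 alone, against 12.4%, and Col24a1 held none of these letters. The 150 bases before the start are printed for Col1a2 and Col5a3, which carry CCAAT, and for Col3a1, which is AT-rich and carries TATAAA, as examples of different make-up. Capitals mark every match on either strand, where GTCTG is CAGAC and CCGCCC is GGGCGG read from the opposite strand, and no matches overlap.
Col1a2, chr6:4505468-4505617, plus: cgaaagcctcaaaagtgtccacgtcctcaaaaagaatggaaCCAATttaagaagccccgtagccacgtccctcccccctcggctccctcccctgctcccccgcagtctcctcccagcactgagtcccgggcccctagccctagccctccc
Col3a1, chr1:45311388-45311537, plus: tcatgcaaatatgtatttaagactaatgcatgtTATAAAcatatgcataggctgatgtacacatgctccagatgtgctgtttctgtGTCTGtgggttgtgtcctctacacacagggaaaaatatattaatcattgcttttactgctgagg
Col5a3, chr9:20815068-20815217, minus: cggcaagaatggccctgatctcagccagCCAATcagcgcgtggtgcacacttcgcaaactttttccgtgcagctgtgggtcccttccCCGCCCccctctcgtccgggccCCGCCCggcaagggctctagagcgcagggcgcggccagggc
Over the 250 bases searched, GC content was 35.2% for Col3a1, 62.0% for Col1a2, 62.8% for Col5a3 and 76.4% for Col5a1, against a median of 52.4% over all promoters. Further upstream of the printed stretch, Col1a2 also held GGGCGG starting at -205 and -188 and CAGAC at -175, and Col3a1 held CAGAC at -239.

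Some facts of the whole series bear on these genes. The libraries held 6702948 to 10447101 counts. Pear1 normalized counts were 519 to 576 in WT vehicle and 501 to 547 in the libraries with the label Pear1-/- vehicle. After bleo they were 239 to 266 in WT and 344 to 372 in the libraries with the label Pear1-/-. The targeted gene was thus not lower in the libraries with the label Pear1-/- than in WT, with a log2 difference of -0.08 under vehicle (adjusted p = 0.49) and 0.48 after bleo (adjusted p = 7.5e-05, edgeR). Counts per gene cannot separate exons before and after the cassette, so a direction between genotypes below is one between labels. The library WT vehicle replicate 2 stood apart from its group. Its counts differed from those of WT vehicle replicates 1 and 3 by a chi-square per degree of freedom of 25.2 and 26.0, and from the 3 libraries with the label Pear1-/- vehicle by 1.81 to 2.92. The 3 pairs within the libraries with the label Pear1-/- vehicle differed by 1.48 to 5.46, and the 6 pairs within the bleo groups by 1.37 to 1.51. No library was moved or left out, and values of the members that its removal moved past a threshold are given with and without it.

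Type I and type III chains made up nearly all counts on the members. Normalized counts, which are counts divided by a size factor for the library, of Col1a1 were 33474, 31492 and 32191 in the 3 WT vehicle libraries. They were 30988, 29780 and 33804 in the libraries with the label Pear1-/- vehicle, 42477, 42433 and 42504 in WT bleo, and 138603, 144439 and 143477 in the libraries with the label Pear1-/- bleo. The vehicle groups overlapped, WT bleo lay above both, and the libraries with the label Pear1-/- bleo lay above all others. Over all genes tested, WT bleo lay wholly above WT vehicle for 32.0%. The libraries with the label Pear1-/- bleo lay above all others for 13.1%.

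Col1a2, the second chain of type I collagen, had normalized counts of 20263, 21756 and 20026 in WT vehicle and 22143, 21588 and 22721 in the libraries with the label Pear1-/- vehicle. After bleo it had 23639, 23073 and 23095 in WT and 62385, 64424 and 64207 in the libraries with the label Pear1-/-. WT bleo lay above every vehicle library, by less than the distance to the libraries with the label Pear1-/- bleo.

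Col3a1, the chain of type III collagen, was the member that fell in WT bleo. Its normalized counts were 38271, 36758 and 36527 in WT vehicle and 32332, 31816 and 32117 in WT bleo. These groups did not overlap, nor did they for 36.7% of all genes tested in the same direction. In the libraries with the label Pear1-/- the normalized counts of Col3a1 were 37017, 36092 and 37264 under vehicle and 71311, 72865 and 72549 after bleo.

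The type V chains did not move as a unit. Col5a1, the chain found in every type V trimer, had 1181, 1276 and 1148 normalized counts in WT vehicle and 1285, 1252 and 1271 in WT bleo, and these groups overlapped. It had 1219 to 1258 in the libraries with the label Pear1-/- vehicle and 3824 to 3944 in those labelled Pear1-/- bleo. Col5a2, its usual partner, went from 2533, 2455 and 2446 in WT vehicle to 4138, 4131 and 4103 in WT bleo. There was no overlap, as for 32.0% of all genes tested in that direction. In the libraries with the label Pear1-/- Col5a2 went from 2338, 2359 and 2371 under vehicle to 10496, 10514 and 10763 after bleo. Col5a3, the optional chain, had 342, 260 and 287 normalized counts in WT vehicle and 287, 294 and 284 in WT bleo. It had 246 to 278 in the libraries with the label Pear1-/- vehicle and 1208 to 1226 in those labelled Pear1-/- bleo.

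Col11a1 and Col24a1 were the scarce members. Col11a1 had 46.1, 21.3 and 58.4 normalized counts in WT vehicle, where the low value was that of replicate 2, and 18.9, 17.6 and 20.7 in the libraries with the label Pear1-/- vehicle. After bleo it had 39.5, 46.9 and 35.4 in WT and 209, 235 and 239 in the libraries with the label Pear1-/-. Col24a1 had 45.7 to 55.8 normalized counts in WT vehicle, 32.7 to 46.4 in the libraries with the label Pear1-/- vehicle, 45.9 to 56.0 in WT bleo and 113 to 134 in the libraries with the label Pear1-/- bleo. For both genes the last group lay above the other 9 libraries, as for 13.1% of all genes tested.

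**Figure D1:**
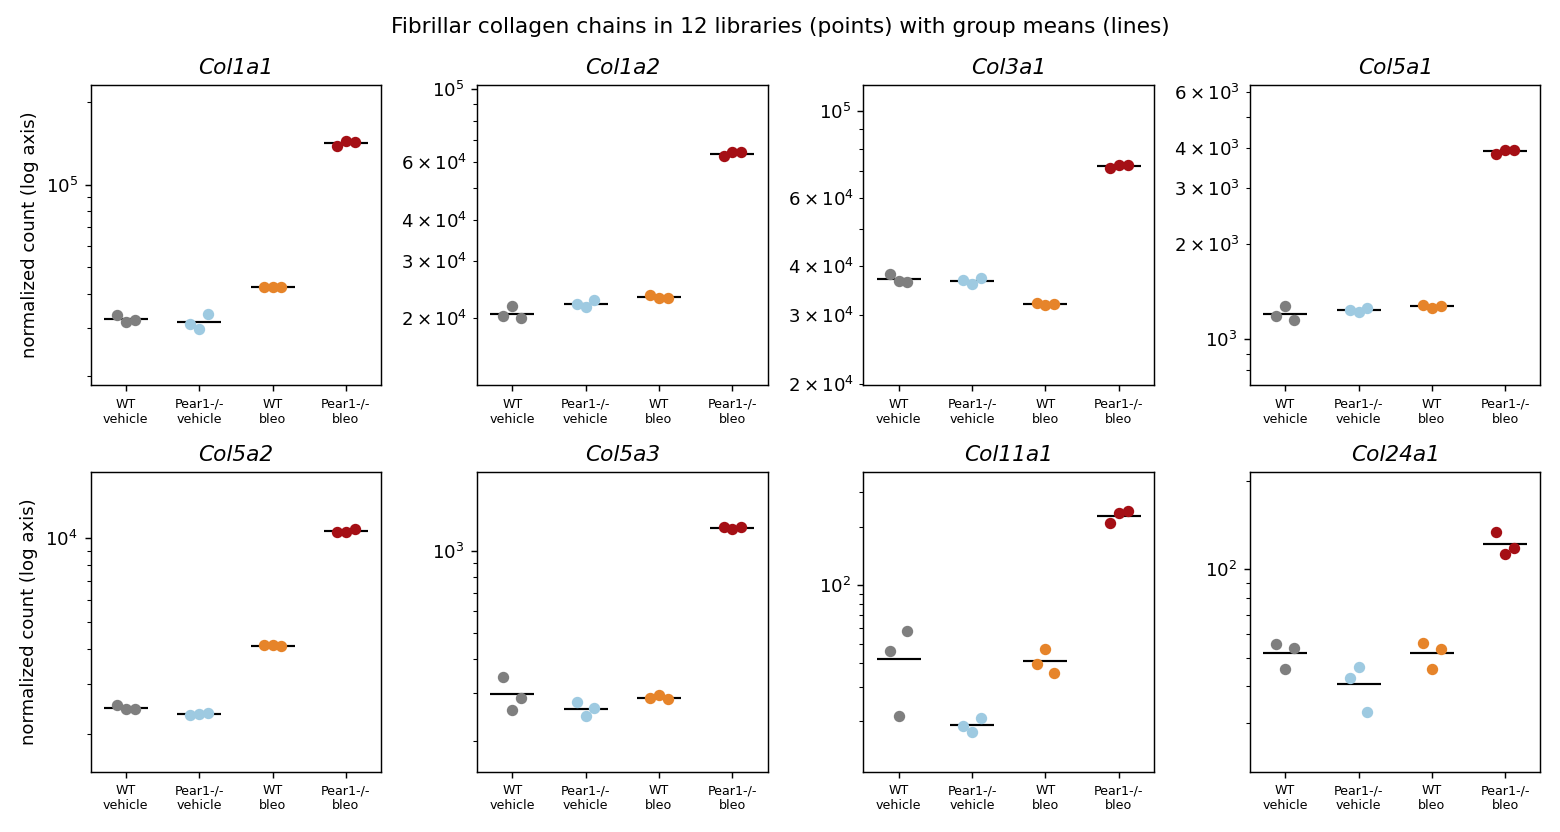
Normalized counts on a log axis of the 8 fibrillar collagen genes in each library (points) by group, with the group mean as a line. The 3 libraries labelled Pear1-/- bleo lie above the other 9 for every member, as they do for 13.1% of all genes tested, and Col11a1 of WT vehicle replicate 2 lies near the libraries with the label Pear1-/- vehicle.

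Read per length of transcript, the chains differed by up to 3 orders of size. In WT vehicle, Col3a1 stood at 792 ± 68.9 CPM per kb, the count scaled to the library total and to transcript length (SD, n = 3), Col1a1 at 647 ± 64.3 and Col1a2 at 457 ± 14.8. The type V chains followed, with Col5a2 at 44.3 ± 3.73, Col5a1 at 16.9 ± 0.438 and Col5a3 at 5.76 ± 1.14. Col24a1 at 0.862 ± 0.149 and Col11a1 at 0.662 ± 0.329 came last and did not differ beyond their spread. Length here is that of the transcript with the longest coding sequence. With the length of all annotated exons instead, Col1a1 came before Col3a1 in all 4 groups, in WT vehicle at 585 against 449.

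By transcript length, the order after bleo changed at the top in both genotypes and at the bottom under the Pear1-/- label. Col1a1 came first in WT bleo, at 805 ± 1.40 CPM per kb, and Col3a1 second, at 648 ± 5.40. In the libraries with the label Pear1-/- bleo, Col1a1 reached 2678 ± 45.2, Col3a1 1450 ± 9.12, Col1a2 1330 ± 16.5 and Col5a2 179 ± 2.14. There Col11a1, at 3.31 ± 0.224, stood above Col24a1, at 1.90 ± 0.184. By counts alone, Col1a1 ranked 18th to 22nd among all genes in every vehicle and WT bleo library and 4th in each library with the label Pear1-/- bleo.

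The first comparison asked what bleo did to these chains in WT. Col5a2 rose 1.68-fold and Col1a1 1.32-fold, Col1a2 rose 1.13-fold and Col3a1 fell to 0.870 of its vehicle level. None of the 8 members reached the call used here, a fold change over 2 with an adjusted p under 0.05 in edgeR's quasi-likelihood test. Over all 17418 genes tested, 10.5% were called higher and 23.3% lower. At the adjusted p alone 3 members were higher and 1 was lower, against 31.4% and 36.5% of all genes, so the share that was higher was near the background and the share that was lower was below it. The log2 fold changes were 0.75 for Col5a2 (SE 0.057, adjusted p = 1.1e-09, edgeR), 0.40 for Col1a1 (SE 0.053, adjusted p = 1.8e-06), 0.18 for Col1a2 (SE 0.051, adjusted p = 0.0038) and -0.20 for Col3a1 (SE 0.047, adjusted p = 0.00088). Col5a1 (0.09, SE 0.064), Col24a1 (0.02, SE 0.18), Col11a1 (-0.01, SE 0.26) and Col5a3 (-0.02, SE 0.092) did not pass. Without WT vehicle replicate 2, Col5a1 passed as well, at 0.20 (adjusted p = 0.0023, edgeR), and without WT bleo replicate 2 the fall of Col3a1 no longer passed, at -0.15 (adjusted p = 0.061). With no filter on low counts Col3a1 was at -0.07 (adjusted p = 0.48, edgeR).

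These WT values depended on what the libraries were scaled to. Markers of fibroblasts took 1.05 to 1.09% of counts in WT vehicle and 0.291 to 0.294% in WT bleo, and 17 of 19 were lower at the adjusted p. Pdgfra, the gene of the sorting marker, was lower by a log2 difference of -1.74. Leukocyte markers took 0.800 to 0.957% in WT vehicle and 3.39 to 3.50% in WT bleo, and 17 of 26 were higher. Ptprc, which encodes CD45, was higher by 1.22. Epithelial markers took 0.527 to 0.658% in WT vehicle and 0.183 to 0.185% in WT bleo, endothelial markers 0.0464 to 0.0493% and 0.0265 to 0.0281%, and smooth muscle and pericyte markers 0.0351 to 0.0403% and 0.0244 to 0.0246%. Of these lists 8 of 10, 7 of 8 and 4 of 9 genes were lower at the adjusted p, and 2, 0 and 3 were higher. Mesothelial markers took 0.00491 to 0.00574% and 0.00174 to 0.00189%, and cartilage markers 0.00199 to 0.00315% and 0.00164 to 0.00172%. Dcn led the 19 fibroblast markers, with 30.077% of their summed counts in WT vehicle and 26.735% in WT bleo. In the libraries with the label Pear1-/- it made up 42.357% under vehicle and 19.999% after bleo. Dcn itself was lower after bleo, by log2 values of -1.92 in WT (SE 0.25) and -2.41 under the Pear1-/- label (SE 0.26). The summed scaling therefore leans on this gene. When libraries were scaled to the summed counts of the 19 fibroblast markers, all 8 members were called higher after bleo in WT. Their log2 values ran from 1.58 for Col3a1 to 2.52 for Col5a2, but 70.8% of all genes were also called higher. Scaled to the median ratio of those markers, a setting added after the data were seen, 4 members were called, with values from 0.71 for Col3a1 to 1.66 for Col5a2, against 42.3% of all genes called higher. The share of members called was near that of all genes on the median ratio. These scalings moved the median of all genes from -0.07 to 1.71 and 0.84, and they turned the direction of Col3a1, Col5a3 and Col11a1. In bulk libraries fewer cells of a type and less RNA per cell cannot be told apart, and the part of either, or of these other cells, in the collagen values was not tested.

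The same comparison within the libraries with the label Pear1-/- gave larger values. There 7 of 8 members were called higher in bleo than in vehicle, against 8.37% of all genes called higher and 19.3% lower. At the adjusted p alone all 8 were higher, against 29.1% of genes higher and 33.1% lower. Col11a1 had the largest log2 fold change, 3.57 (SE 0.23, adjusted p = 1.8e-10, edgeR), followed by Col5a3 at 2.22 (SE 0.089), Col1a1 at 2.18 (SE 0.055) and Col5a2 at 2.17 (SE 0.059). Col5a1 rose by 1.66 (SE 0.065), Col24a1 by 1.58 (SE 0.17) and Col1a2 by 1.53 (SE 0.052). Col3a1 rose by 0.98 (SE 0.047, adjusted p = 1.8e-12, edgeR), just short of a fold of 2. The median over the members was 1.92, against -0.05 over all genes. Fibroblast markers took 1.03 to 1.05% of counts under vehicle and 0.427 to 0.434% after bleo in these libraries, and leukocyte markers 0.929 to 1.03% and 1.54 to 1.58%. Epithelial markers took 0.623 to 0.704% and 0.0791 to 0.0807%, and smooth muscle and pericyte markers 0.0348 to 0.0372% and 0.0599 to 0.0631%. Endothelial markers took 0.0480 to 0.0513% and 0.0267 to 0.0287%, and mesothelial markers 0.00423 to 0.00479% and 0.00227 to 0.00256%. Cartilage markers took 0.00210 to 0.00245% and 0.00236 to 0.00259%. Their part in the collagen values was not tested.

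Under vehicle the labels differed little in these genes. Of the 8 members only Col11a1 was called, at a log2 difference of -1.12 in the libraries with the label Pear1-/- (SE 0.29, adjusted p = 0.036, edgeR), against 3.25% of all genes called lower and 0.0689% called higher. At the adjusted p alone it was again the single member, against 5.29% of genes lower and 1.95% higher. This background itself rested on single libraries. Without WT vehicle replicate 2, 21.3% of genes were called lower and 2.86% higher. With each of the remaining 5 vehicle libraries left out in turn, 0 were called by edgeR, while 2961 to 5876 genes had an unadjusted p under 0.05. That call rested on 19 to 51 counts a library. It was lost without any one of WT vehicle replicates 1 and 3 or the 3 libraries with the label Pear1-/- vehicle, with log2 values from -1.13 to -0.79 and adjusted p from 0.087 to 0.22. It was also lost with limma (log2 -0.98, adjusted p = 0.12) and in a fit of the vehicle groups alone (log2 -1.15, adjusted p = 0.21). Without WT vehicle replicate 2 it was -1.39 (adjusted p = 4.3e-06, edgeR), and Col1a2 (0.20) and Col5a1 (0.16) also passed at the adjusted p, as did 29.7% of all genes lower and 25.5% higher. The other 7 members lay between -0.34 for Col24a1 and 0.09 for Col1a2 with all libraries.

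After bleo all 8 members were higher in the libraries with the label Pear1-/- than in WT, and all 8 were called. Over all genes 6.22% were called higher and 8.80% lower in that comparison, and 22.1% were higher and 24.0% lower at the adjusted p alone. Col11a1 was 5.54-fold higher, with a log2 fold change of 2.47 (SE 0.21, adjusted p = 1.2e-08, edgeR), and Col5a3 4.18-fold, at 2.06 (SE 0.088). Col1a1 was 3.32-fold higher, at 1.73 (SE 0.054, adjusted p = 4.1e-14), Col5a1 3.05-fold, at 1.61 (SE 0.065), and Col1a2 2.71-fold, at 1.44 (SE 0.051). Col5a2 was 2.54-fold higher, at 1.35 (SE 0.057), Col24a1 2.32-fold, at 1.21 (SE 0.16), and Col3a1 2.23-fold, at 1.16 (SE 0.047). The groups did not overlap for any member, nor for 31.3% of all genes in the same direction, and the member median of 1.52 compares with -0.01 over all genes. All 8 remained higher at the adjusted p in each of 15 alternative settings.

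**Figure D2:**
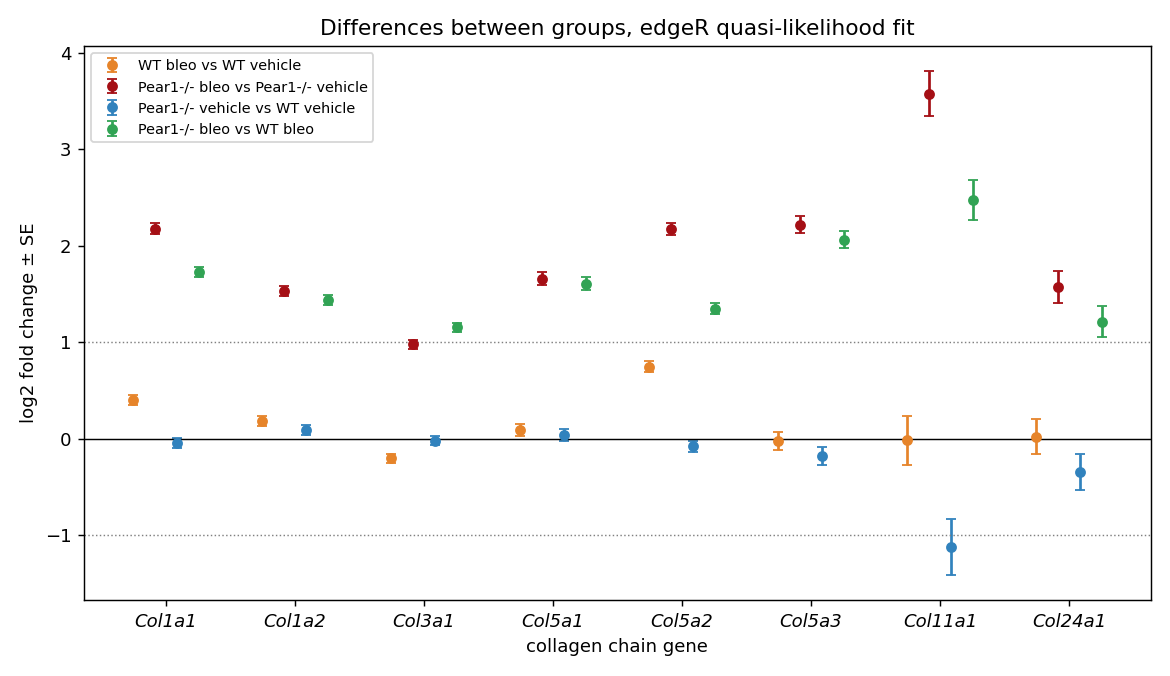
Log2 fold change with its standard error for each fibrillar collagen gene in 4 comparisons, with dotted lines at a fold of 2. The WT bleo values lie between -0.20 and 0.75, and those of the libraries with the label Pear1-/- bleo against WT bleo between 1.16 and 2.47.

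Here too the marker lists moved with the members. Fibroblast markers took 0.291 to 0.294% of counts in WT bleo and 0.427 to 0.434% in the libraries with the label Pear1-/- bleo, with 11 of 19 higher and 1 lower. Leukocyte markers took 3.39 to 3.50% and 1.54 to 1.58%, with 20 of 26 lower. Pdgfra was higher by 0.80 and Ptprc lower by -1.19 on the log2 scale. Scaled to the summed fibroblast markers, 4 members were still called, with log2 values from 0.60 for Col3a1 to 1.92 for Col11a1, and with the median ratio 5 were called, from 0.73 to 2.05, against 2.80% and 3.35% of all genes called higher. These scalings moved the median of all genes to -0.57 and -0.44. Epithelial markers were lower, at 0.183 to 0.185% of counts in WT bleo and 0.0791 to 0.0807% in the libraries with the label Pear1-/- bleo. Smooth muscle and pericyte markers took 0.0244 to 0.0246% and 0.0599 to 0.0631% of counts, of which Des made up 42.2% and 60.7%. Of these 9 markers 5 were higher and 2, Myh11 and Notch3, were lower at the adjusted p. Endothelial markers took 0.0265 to 0.0287% in these groups, mesothelial markers 0.00174 to 0.00256% and cartilage markers 0.00164 to 0.00259%. Matn1, a cartilage matrix gene, was at 0 counts in all 6 bleo libraries and Acan, the cartilage proteoglycan, at 7 or fewer. The part of these other cells in the collagen difference was not tested.

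**Figure D3:**
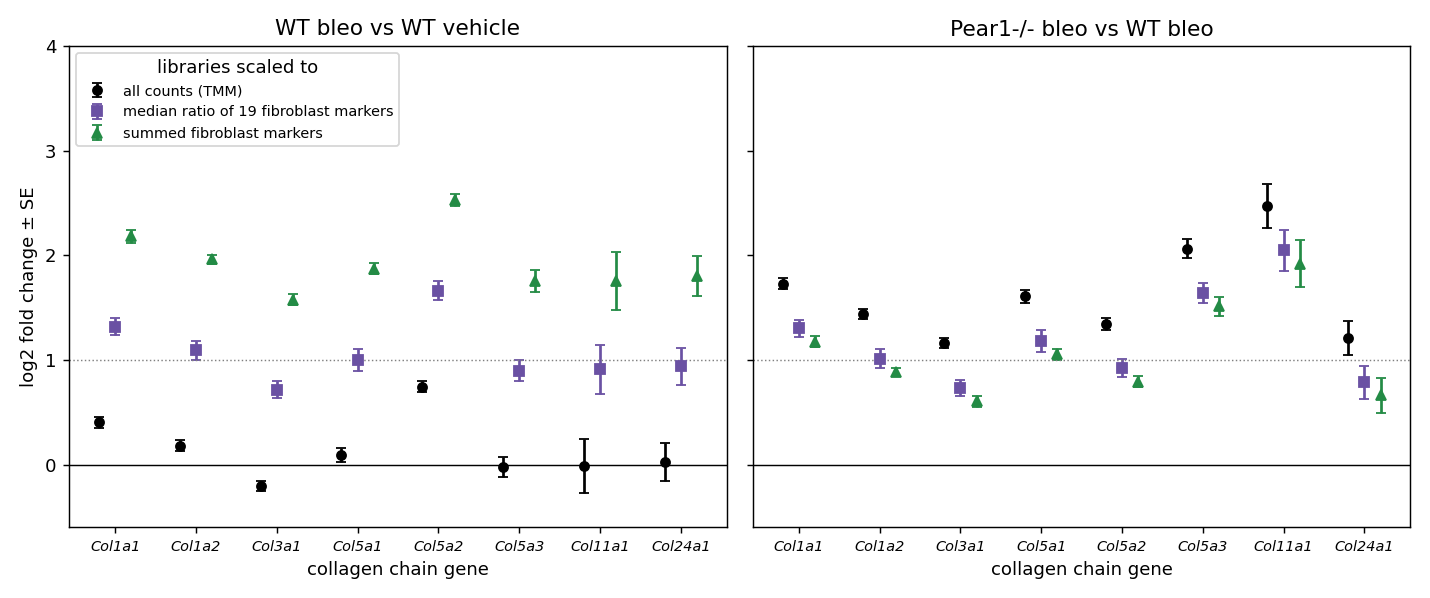
Log2 fold change with standard error of the 8 members in WT bleo against WT vehicle (left) and in the libraries with the label Pear1-/- bleo against WT bleo (right) under 3 scalings of the libraries, with a dotted line at a fold of 2. In WT the values move from between -0.20 and 0.75 to between 1.58 and 2.52 when scaled to summed fibroblast markers, while in the right panel they stay at or above 0.60.

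**Figure D4:**
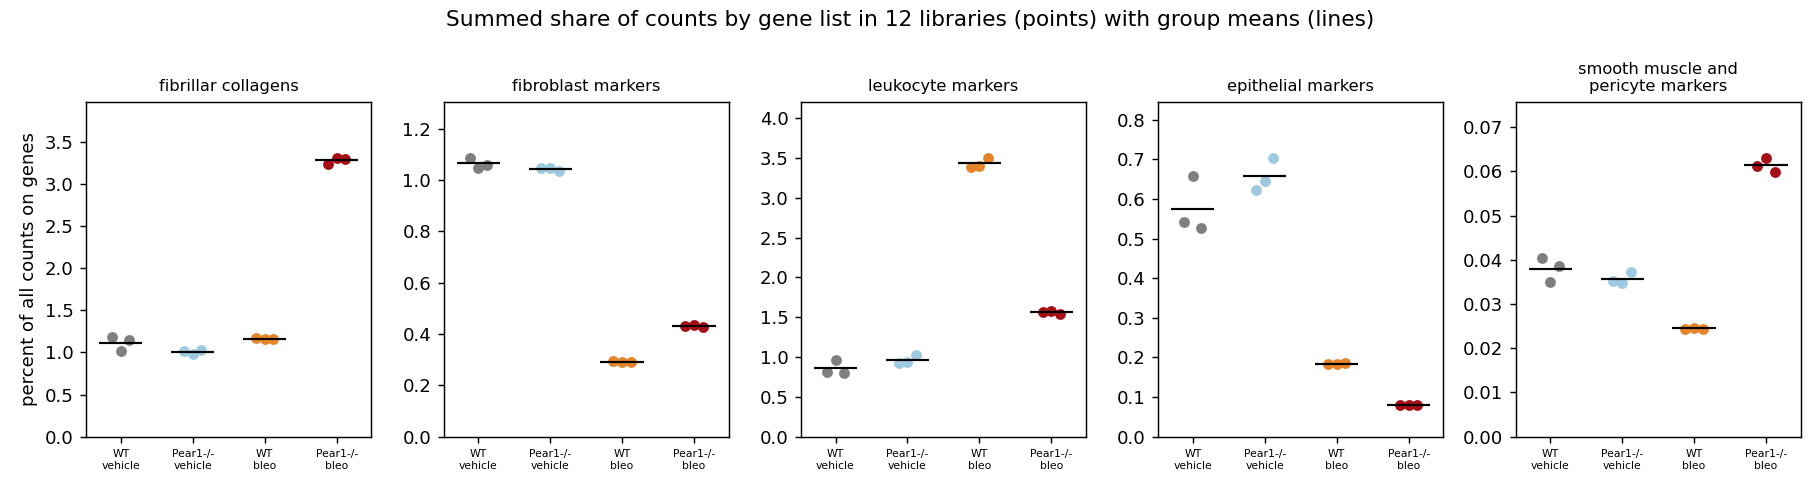
Percent of all counts on genes taken by the members and by 4 marker lists in each library (points), with group means as lines and each axis starting at 0. The member share stands at 3.24 to 3.32% in the libraries with the label Pear1-/- bleo and at or below 1.18% elsewhere.

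The bleo response itself differed between the labels for every member. The interaction, the response in the libraries with the label Pear1-/- minus that in WT, was called for all 8, against 8.53% of genes called higher and 6.98% lower. It ran from 1.18 for Col3a1 (SE 0.066, adjusted p = 2.8e-10, edgeR) to 3.59 for Col11a1 (SE 0.36, adjusted p = 3.2e-07) on the log2 scale, with a member median of 1.56 against 0.00 over all genes. The value of Col11a1 includes its lower vehicle level under the Pear1-/- label. Scaled to fibroblast markers, by sum or by median ratio, 5 members were called, with medians of 1.12 and 1.11, against 4.55% and 4.72% of all genes called higher.

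As a share of the whole library, the members took 1.12 ± 0.0881% of counts in WT vehicle and 1.01 ± 0.0235% in the libraries with the label Pear1-/- vehicle (SD, n = 3 each). They took 1.16 ± 0.00666% in WT bleo and 3.29 ± 0.0410% in the libraries with the label Pear1-/- bleo. Between the bleo groups the share was 2.82-fold higher under the Pear1-/- label, with no overlap (two-sided exact permutation p = 0.1, which 3 libraries against 3 cannot go below). Bleo against vehicle with labels permuted within genotype gave a 1.84-fold difference (exact permutation test, two-sided, p = 0.03, adjusted p = 0.036 over 6 tests). This pooled value averages 1.04-fold in WT (exact permutation p = 0.6) with 3.26-fold under the Pear1-/- label (exact permutation p = 0.1, the smallest possible). Without WT vehicle replicate 2 the pooled value no longer passed (exact permutation test, p = 0.06). Per count on a fibroblast marker, the members had 1.05 ± 0.0675 counts in WT vehicle, 0.968 ± 0.0276 in the libraries with the label Pear1-/- vehicle, 3.98 ± 0.0221 in WT bleo and 7.63 ± 0.0963 in the libraries with the label Pear1-/- bleo. By that measure both bleo groups lay above both vehicle groups. Dcn alone made up 19.999 to 42.357% of those marker counts in the 4 groups.

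Ratios between chains within one library do not depend on scaling, and they shifted after bleo. Col1a1 had 1.57 ± 0.108 counts per Col1a2 count in WT vehicle, 1.42 ± 0.0576 in the libraries with the label Pear1-/- vehicle, 1.83 ± 0.0247 in WT bleo and 2.23 ± 0.0103 in the libraries with the label Pear1-/- bleo. Type I collagen is usually a trimer with more Col1a1 than Col1a2 chains. Col3a1 had 1.15 ± 0.0168 counts per Col1a1 count in WT vehicle and 1.17 ± 0.0589 in the libraries with the label Pear1-/- vehicle, against 0.756 ± 0.00569 in WT bleo and 0.508 ± 0.00548 in the libraries with the label Pear1-/- bleo. Neither measure overlapped between bleo and vehicle or between the bleo groups.

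Within type V, Col5a2 had 2.07 ± 0.124 counts per Col5a1 count in WT vehicle, 1.90 ± 0.0281 in the libraries with the label Pear1-/- vehicle, 3.25 ± 0.0428 in WT bleo and 2.71 ± 0.0422 in the libraries with the label Pear1-/- bleo. This ratio was therefore lower in the last group than in WT bleo, unlike the levels of both chains. Col5a3 per Col5a1 count was 0.248 ± 0.0431, 0.212 ± 0.0119, 0.227 ± 0.00618 and 0.312 ± 0.00670 in the same order of groups. Col5a1 per Col1a1 count was 0.0372 ± 0.00292, 0.0394 ± 0.00192, 0.0299 ± 0.000368 and 0.0275 ± 0.000144.

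**Figure D5:**
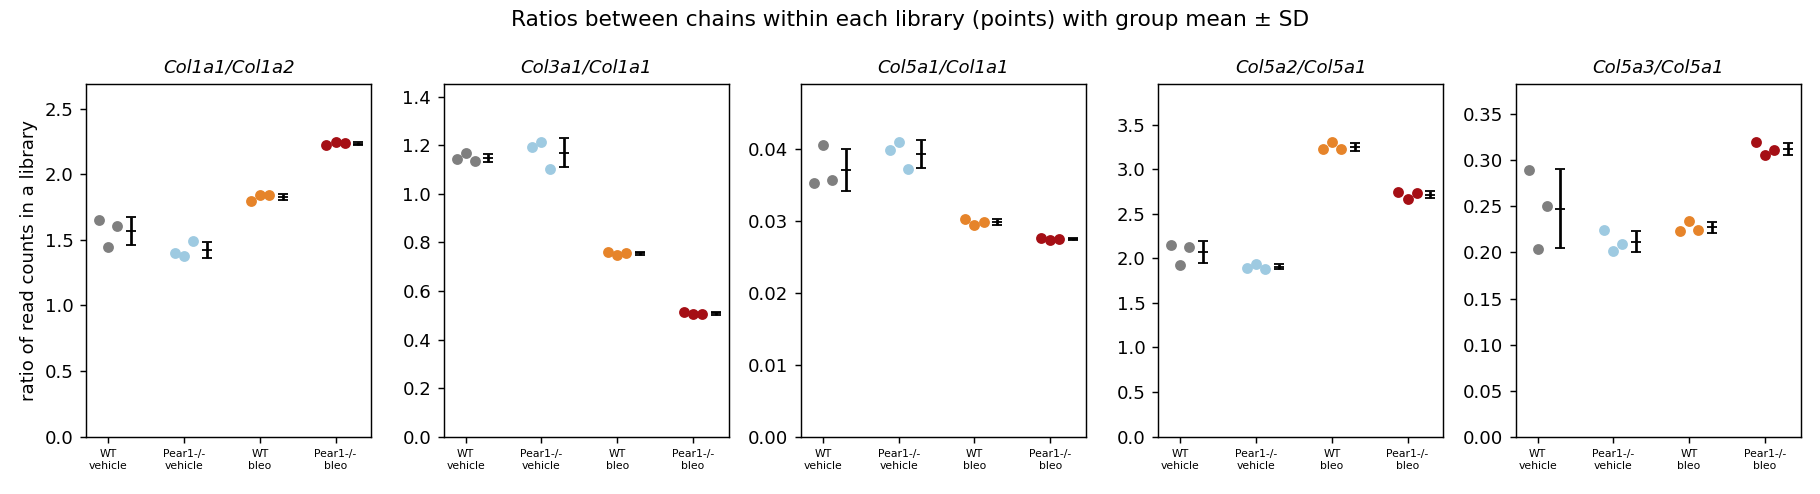
Ratio of read counts between chains in each library (points) by group, with mean and SD beside them and each axis starting at 0. Col3a1 per Col1a1 count steps down from 1.15 in WT vehicle to 0.756 in WT bleo and 0.508 in the libraries with the label Pear1-/- bleo, while Col5a2 per Col5a1 count is highest in WT bleo.

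With labels permuted within genotype, 4 of the 5 ratios differed between bleo and vehicle at the smallest p this test can give. Each had an exact permutation p of 0.005, two-sided, and an adjusted p of 0.0075 over 6 tests. The log2 difference between bleo and vehicle was 0.44 for Col1a1 per Col1a2, -0.90 for Col3a1 per Col1a1, -0.42 for Col5a1 per Col1a1 and 0.58 for Col5a2 per Col5a1. Col5a3 per Col5a1 did not pass (log2 difference 0.23, exact permutation p = 0.1). Between the bleo groups the ratios differed by factors of 1.22 for Col1a1 per Col1a2, 0.673 for Col3a1 per Col1a1, 0.919 for Col5a1 per Col1a1, 0.835 for Col5a2 per Col5a1 and 1.37 for Col5a3 per Col5a1. No group pair overlapped in these, and each exact permutation p was 0.1, the smallest possible with 3 against 3, so none could pass on its own.

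The share of the members' own counts shows the same shift. Col3a1 made up 39.4 ± 0.361% of the members' counts in WT vehicle, 30.97 ± 0.0969% in WT bleo and 24.6 ± 0.159% in the libraries with the label Pear1-/- bleo. Col1a1 went the other way, with 34.3 ± 0.741%, 41.0 ± 0.221% and 48.3 ± 0.214%. The group means of Col1a2 lay between 21.6 and 23.5% in all 4 groups. Col5a2 made up 2.63, 3.98 and 3.60% in the same 3 groups.

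Of the 3 other fibrillar collagen genes 2 passed the filter on low counts and were tested. Neither was called in these comparisons with that filter, all libraries and the TMM scaling. On summed fibroblast markers both were called higher after bleo, in WT and under the Pear1-/- label, where 70.8% and 62.1% of all genes were. Col27a1, which encodes a cartilage fibrillar chain, had 153 to 263 normalized counts in WT vehicle, 134 to 175 in WT bleo and 185 to 240 in the libraries with the label Pear1-/- bleo. It was lower in WT bleo than in WT vehicle, by a log2 difference of -0.55 (SE 0.20, adjusted p = 0.025, edgeR), which turned to 1.22 and 0.38 on summed and median-ratio fibroblast markers, and its interaction was 0.91 (adjusted p = 0.019), or 0.47 and 0.44 and no longer passing on those scalings. The low WT vehicle value was that of replicate 2. Without that library the fall was -0.70 (adjusted p = 4.8e-06, edgeR) and the interaction 1.05 (adjusted p = 1.4e-06), which was then called. The fall no longer passed without WT vehicle replicate 1 or 3 or without WT bleo replicate 1 or 2, at -0.47 to -0.40 (adjusted p from 0.069 to 0.11, edgeR). The interaction no longer passed with limma or without WT vehicle replicate 1, WT bleo replicate 1 or replicate 1 of the libraries with the label Pear1-/- bleo, at 0.76 to 0.88 (adjusted p from 0.050 to 0.054). At 3.53 CPM per kb in WT vehicle it stood above Col24a1 and Col11a1. It was higher by 0.53 on the log2 scale in the libraries with the label Pear1-/- bleo than in WT bleo (SE 0.19, adjusted p = 0.038, edgeR), under a fold of 2, and the value was -0.03 and 0.10 on those scalings. It no longer passed without replicate 1 or 2 of either bleo group, at 0.44 to 0.49 (adjusted p from 0.097 to 0.12, edgeR), or with limma (0.53, adjusted p = 0.077). Col11a2, the partner of Col11a1 in type XI collagen, had 14 to 22 counts a library in WT bleo and 6 to 11 in the libraries with the label Pear1-/- bleo, opposite in direction to Col11a1 and at the threshold without passing it (log2 -1.12, adjusted p = 0.050, edgeR). It was called lower on summed fibroblast markers, at -1.67 (adjusted p = 0.0046), and on their median ratio, at -1.55 (adjusted p = 0.0046), where 23.2% and 18.8% of all genes were called lower. It was also called in the fit of the bleo groups alone (-1.12, adjusted p = 0.0044) and without WT vehicle replicate 2 (-1.13, adjusted p = 0.010, edgeR). Col2a1, the main cartilage collagen, did not pass the filter on low counts with all libraries and was not tested in that fit. It had 21, 1 and 19 counts in WT vehicle, 1 or 2 in the libraries with the label Pear1-/- vehicle, 6 or 7 in WT bleo, and 0 or 1 in the libraries with the label Pear1-/- bleo, under the floor of 3 counts. In the fit without WT vehicle replicate 2, which kept Col2a1, it was called lower between the bleo groups (adjusted p = 0.00013, edgeR), where 9.41% of all genes were called lower. With no filter on low counts every gene was kept, Col2a1 included, and its value there is not given here.

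Levels of the 8 members were correlated over the 12 libraries. Pearson's r of log2 CPM ran from 0.852 for Col3a1 with Col5a2 to 0.999 for Col1a2 with Col5a1. The 12 points share 4 groups, and 1 group sets most of each r, so these values are descriptions. Among 10448 non-member genes whose mean log2 CPM reached 3, those most like Col1a1 were Sparc, a collagen-binding matrix protein (r = 0.998), Des, the intermediate filament of muscle (0.996), and Hspb7 (0.996). Those most like Col1a2 were Col4a1, a basement membrane collagen (0.999), Des (0.991) and Sfrp1, a secreted Wnt antagonist (0.990). Col3a1 was followed by Grb10 (0.997), Tpm2 (0.996) and Acta2, the actin of smooth muscle and myofibroblasts (0.995). Col5a1 was followed by Col4a1 (0.998), P3h1, a collagen prolyl hydroxylase (0.992), and Fstl1 (0.990). The genes nearest to Col5a2 were Col4a2 (0.997), Tpm1 (0.997) and Mgll (0.994), and those nearest to Col5a3 were Dzip1l (0.993), Actn1 (0.990) and Ssc5d (0.990). Col11a1 and Col24a1 were below that level and were not searched.

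Most genes that build procollagen were also higher in the libraries with the label Pear1-/- bleo. Of 28 tested genes for procollagen synthesis and processing, 20 were higher and 3 lower than in WT bleo at the adjusted p, and 9 higher and 1 lower were called. Over all genes 22.1% were higher and 24.0% lower at the adjusted p, and 6.22% and 8.80% were called. Their median log2 fold change was 0.70. Scaled to the summed fibroblast markers, 13 were higher and 8 lower, of which 2 and 2 were called. In that setting 6.15% of all genes were higher and 59.7% lower, and 2.80% and 23.2% were called. P4ha3, a subunit of collagen prolyl 4-hydroxylase, had 365 to 393 normalized counts in WT bleo and 1271 to 1300 in the libraries with the label Pear1-/- bleo (log2 1.74, SE 0.075, adjusted p = 1.3e-12, edgeR). Fkbp10, an ER chaperone of procollagen, had 734 to 809 and 1980 to 2051 (log2 1.38), and P3h4, which takes part in collagen lysine hydroxylation, had 163 to 219 and 479 to 517 (log2 1.38). In WT bleo against WT vehicle, 16 of the 28 were lower and 3 higher, among them P4ha3 (log2 1.48), against 36.5% of all genes lower and 31.4% higher. Without WT vehicle replicate 2, 16 were lower and 9 higher, of 29 tested, against 44.7% and 31.7%. The split turned with scaling, to 24 higher and 2 lower on summed fibroblast markers, where 77.5% of all genes were higher and the list median lay below the all-gene median of 1.71.

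Most genes of fibril cross-linking and assembly were higher too. Of 16, 13 were higher and 1 lower in the libraries with the label Pear1-/- bleo than in WT bleo, and 7 and 1 were called, against the same shares of all genes. Scaled to summed fibroblast markers, 9 were higher and 1 lower, of which 2 and 1 were called. Over all genes in that setting 6.15% were higher and 59.7% lower at the adjusted p, and 2.80% and 23.2% were called. Lox, the enzyme that cross-links collagen, had 1563 to 1636 normalized counts in WT bleo and 5534 to 5861 in the libraries with the label Pear1-/- bleo (log2 1.83, SE 0.076, adjusted p = 7.7e-13, edgeR). Fmod, a proteoglycan that binds fibrils, had 1269 to 1325 and 4457 to 4641 (log2 1.80), and it already stood above the 200 to 305 of WT vehicle in WT bleo (log2 2.33). Loxl2, a second cross-linking enzyme, had 210 to 221 and 594 to 629 (log2 1.49). Col14a1, a fibril-associated collagen, was the called gene that was lower, with 1254 to 1347 against 597 to 655 (log2 -1.08).

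Receptors, proteases and TGF-beta genes moved in both directions. Of 11 collagen receptor genes tested, 6 were higher and 3 lower in the libraries with the label Pear1-/- bleo than in WT bleo at the adjusted p, against 22.1% and 24.0% of all genes. Lair1, an inhibitory collagen receptor of leukocytes, was lower, with 1529 to 1626 normalized counts in WT bleo and 526 to 560 in the libraries with the label Pear1-/- bleo (log2 -1.57, adjusted p = 3.3e-12, edgeR), beside the lower leukocyte markers given above. Scaled to summed fibroblast markers, 2 receptor genes were higher and 4 lower, against 6.15% and 59.7% of all genes.

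Of 10 genes of fibrillar collagen breakdown, 6 were higher and 3 lower in the same comparison, against the same 22.1% and 24.0%. Timp1, an inhibitor of matrix proteases, had 1175 to 1243 normalized counts in WT bleo and 3411 to 3498 in the libraries with the label Pear1-/- bleo (log2 1.49). Mmp8, the collagenase of neutrophils, had 168 to 180 and 421 to 446 (log2 1.31, SE 0.32, adjusted p = 0.0085, edgeR), and 95.8 to 278 in WT vehicle. Mmp13, an interstitial collagenase, went down from 476 to 539 in WT bleo to 185 to 200 in the libraries with the label Pear1-/- bleo (log2 -1.40). Scaled to summed fibroblast markers, 3 genes were higher and 3 lower, again against 6.15% and 59.7%.

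Of 18 genes of TGF-beta signalling and its targets, 8 were higher and 9 lower at the adjusted p, with a median of -0.18. Over all genes 22.1% were higher and 24.0% lower in that comparison. Ltbp1, which holds latent TGF-beta in the matrix, had 1478 to 1512 normalized counts in WT bleo and 3431 to 3440 in the libraries with the label Pear1-/- bleo (log2 1.19), and Tgfb2, a ligand, 137 to 158 and 315 to 337 (log2 1.11). For both, the libraries with the label Pear1-/- bleo lay closer to the vehicle libraries than WT bleo did, with Ltbp1 at 3836 to 3979 and Tgfb2 at 270 to 330 in WT vehicle. Tgfbr1, a receptor, was lower, with 2402 to 2484 against 1007 to 1087 (log2 -1.23). Scaled to summed fibroblast markers, 5 of the 18 were higher and 12 lower, where 6.15% of all genes were higher and 59.7% lower.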

How the data were processed

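RNA-seq libraries of sorted CD140a+ mouse lung cells (SMART-Seq v4 cDNA, 12 libraries) were grouped by the submitters' labels. The authors aligned reads to GRCm38/mm10 with HISAT2, and FastQC is named in their processing notes. The counting program is not given in the sources used here. They deposited raw counts per gene and a normalized signal, and each signal value was found to equal the count divided by a DESeq2 size factor (relative difference at most 1.09e-10).

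Counts were filtered by group (17418 of 40760 genes kept), scaled by TMM and tested with edgeR 4.0.16 (quasi-likelihood, robust, 4 group means over 12 libraries, Benjamini-Hochberg over all genes tested, R 4.3.3). A call needed a fold over 2 and an adjusted p under 0.05. Tested on simulated counts with 200 changed genes for the bleo groups, the fit recovered 100% of them over 16628 genes. Ratios and shares were tested by exact permutation over libraries (Python). DESeq2 1.42.0 and limma 3.58.1 (pseudocount 1) were alternatives, as were other scalings, filters, sample sets and left-out libraries. Libraries of 6702948 to 10447101 counts set the precision. A count of 3 or fewer was taken as the floor, for counting error only.

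Members and gene lists were chosen with earlier results of these data known. From each of 5 pathway lists, up to 3 genes that rose most and 1 that fell most in the libraries with the label Pear1-/- bleo against WT bleo were named among called genes whose mean log2 CPM reached 3, along with the 3 genes most correlated with each member at that level.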

Additional observations from a re-analysis of the deposited data

Results flagged for a closer look

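The response to bleo differed between the libraries with the label Pear1-/- and WT, by the interaction term of the edgeR fit, for each of the 8 fibrillar collagen genes. The response under the Pear1-/- label minus that in WT was 1.77 for Col1a1, 1.35 for Col1a2, 1.18 for Col3a1, 1.57 for Col5a1, 1.43 for Col5a2, 2.24 for Col5a3, 3.59 for Col11a1 and 1.55 for Col24a1 on the log2 scale. Over all genes tested, 17.8% had a higher and 19.3% a lower response at the adjusted p. Every member kept its direction and an adjusted p of at most 0.0016 in each of 20 alternative fits, and under the 2 scalings to fibroblast markers 5 of the 8 also kept a fold over 2.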

How the results depend on the processing

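Outside the 2 scalings to fibroblast markers, the calls for all 8 members between the bleo groups and in the interaction kept their number in every alternative, and so did the 7 calls of bleo against vehicle under the Pear1-/- label, except that Col3a1 made it 8 with no filter. It was also 8 under both scalings, where 62.1% (summed markers) and 20.4% (median ratio) of all genes were called higher. Scaled to summed fibroblast markers, 8 members were called in WT bleo against WT vehicle (8 at the adjusted p, median 1.83, with 70.8% of all genes called higher and 77.5% higher at the adjusted p). In that setting 4 were called between the bleo groups (median 0.97) and 5 in the interaction (median 1.12), with 2.80% and 4.55% of all genes called higher. The median within the Pear1-/- label was then 3.25, and that between vehicle groups -0.17 with 2 members at the adjusted p, against 9.59% of all genes lower and 1.12% higher. Scaled to the median ratio of these markers, a setting added after the data were seen, the counts were 4 (8 at the adjusted p), 5 and 5, with medians of 0.97, 1.10 and 1.11, and 2.38 within the Pear1-/- label. Of all genes 42.3% (63.2% at the adjusted p), 3.35% and 4.72% were called higher in the same order. With no filter on low counts the medians were 0.19, 1.97, 0.036 and 1.48 for bleo in WT, bleo within the Pear1-/- label, the vehicle groups and the interaction. Per fibroblast-marker count, the log2 difference of the member share was 1.93 in WT, 2.98 within the Pear1-/- label and 0.94 between the bleo groups. In the vehicle comparison 0 members passed, called or at the adjusted p, with limma and in the fit of only the groups compared, while 2 and 1 members, and 28.2% and 19.4% of all genes, had an unadjusted p under 0.05.

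Some directions turned. For bleo in WT, Col3a1 was 1.58, Col5a3 1.75 and Col11a1 1.75 on summed markers, and 0.71, 0.90 and 0.91 on the median ratio. Col5a3 was 0.11 and Col11a1 0.13 with no filter, Col11a1 was 0.060 with limma, and Col24a1 was -0.00833 with DESeq2 and -0.012 with only the groups compared. Between vehicle groups, Col1a2 was -0.015 and Col5a1 -0.070 on summed markers, Col3a1 0.0041 on the median ratio, and Col1a1 0.053, Col3a1 0.076 and Col5a2 0.019 with no filter. The cause was not tested.

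Leaving out each library in turn, the member median for bleo in WT ran from 0.086 to 0.14, with Col5a3 from -0.046 to 0.097 and Col11a1 from -0.29 to 0.32. Between vehicle groups 0 to 1 members were called and 0 to 3 passed at the adjusted p, with a median from -0.065 to 0.0090, Col1a1 from -0.055 to 0.048 and Col3a1 from -0.030 to 0.045. The interaction median ran from 1.45 to 1.56. The log2 difference of Col3a1 per Col1a1 ran from -1.24 to -1.18 within the Pear1-/- label and from -0.00097 to 0.067 between vehicle groups, and that of Col5a2 per Col5a1 from 0.60 to 0.68 for bleo in WT and from -0.17 to -0.089 between vehicle groups. The share ran from -0.0036 to 0.11 for bleo in WT, from -0.21 to -0.10 between vehicle groups and from 0.85 to 0.90 within genotype.

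Same-numbered libraries did not deviate together (0 of 18 pairs with r over 0.1), so they share only a number. With a replicate block no member call changed, and Col11a1 between vehicle groups was -1.11 (adjusted p = 0.042, edgeR), while 3 of 12 libraries correlated best with their own number. Low counts limit the values of Col11a1, Col24a1, Col11a2 and Col2a1.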

Other observations

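Reads of cartilage genes were few and uneven. Acan, the cartilage proteoglycan, had 11, 3 and 11 counts in the WT vehicle libraries, where Col2a1 had 21, 1 and 19. Acan was at 0 in all 3 libraries with the label Pear1-/- vehicle, which held 1 or 2 Col2a1 counts, at 1 to 7 in WT bleo and at 0 or 1 in the libraries with the label Pear1-/- bleo. Sox9, a transcription factor of cartilage that lung epithelium also expresses, did not follow them, with 95 to 143 counts in WT vehicle, 169 to 201 in the libraries with the label Pear1-/- vehicle, 101 to 114 in WT bleo and 210 to 237 in the libraries with the label Pear1-/- bleo. Cartilage markers took at most 0.00315% of counts in any library. These genes were named after their values were seen.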
